A study of Homo sapiens with 45 samples.

Results

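PITX1, PITX3, OTX1, OTX2, GSC and OTP encode homeodomain transcription factors of the paired class, and this account covers the chromatin contacts found at the ends of these 6 genes. A cis pair, that is 2 fragments of the same chromosome, was taken when either fragment reached within 1000 bp of either RefSeq end of a gene, and each listed pair was counted once. This gave 179 pairs of 152688 cis pairs in all. OTP held 112 of them, PITX1 25, OTX2 17, PITX3 12, OTX1 12 and GSC 1.

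The cells were HNES1, an established human embryonic stem cell line, taken on day 5 of the passage from naive to primed pluripotency. All of them went through the same medium change, and they differed in what was added from 24 h before it. The control received DMSO, the solvent. Other cells received 2.5 µM UNC6852, a PROTAC that leads to degradation of EED, a core subunit of Polycomb repressive complex 2 (PRC2). A further set received 1 µM UNC1999, which blocks EZH1 and EZH2, the subunits of PRC2 that methylate histone H3. HNES1 is 1 cell line, so other lines were not sampled. Each condition had 15 libraries from 3 biological replicates, but its values came as 1 profile pooled over all of them. No spread between replicates could be computed, so no test was made, and each difference below is between single pooled profiles. The doses of the compounds differ, so their values stand side by side and no comparison of their strength was made. Both are set against the same DMSO profile, so values for the compounds are not independent of each other.

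PRC2 places the repressive mark H3K27me3 on CpG-rich promoters of developmental genes in pluripotent cells, and enhancers that carry this mark next to active ones are called poised. Poised enhancers and Polycomb-bound promoters are known to contact each other over long distances before the genes are switched on. Within this class, PITX, OTX and GSC proteins share a lysine in the DNA-recognition helix of the homeodomain and bind the motif TAATCC, whereas OTP has a glutamine there and belongs to the group that binds TAATTA. GSC marks the gastrula organizer, OTX2 acts in the exit from naive pluripotency and then with OTX1 in the forebrain and midbrain, PITX1 specifies the hindlimb and pituitary, PITX3 is needed in dopaminergic neurons and the lens, and OTP forms neuroendocrine neurons of the hypothalamus.

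The assay was poised-enhancer capture Hi-C, in which crosslinked and ligated DpnII fragments that hold a poised enhancer, here called captured fragments or baits, are pulled down with RNA probes. Each value is a CHiCAGO score, which grows as the reads joining a bait to another fragment exceed those a background model predicts at that distance. Scores of 5 or more were taken as calls, profile by profile, and every listed pair reached this in at least 1 profile. A pair called in 1 profile alone was therefore listed because of that profile. Captured fragments had a median length of 625 bp. Other ends that were not captured were bins with a median length of 5266 bp, so the position of such an end is known only to a few kilobases. The number of reads behind a score is unknown.

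The promoters that lay inside fragments with listed contacts are shown first, because they place a transcription start within the fragments of some of the contacts below; most listed pairs were at other fragments. Each run is the 250 bases before a RefSeq transcription start on GRCh38.p14, 5′ to 3′ on the strand of the gene, which is the minus strand for all 3, with CpG dinucleotides, a feature of the promoters that PRC2 occupies, in capitals. The OTP window at chr5:77638714-77638963 lay whole inside a captured fragment, chr5:77638653-77639696, that entered 34 of the listed OTP pairs. The PITX3 window at chr10:102241513-102241762 lay in an uncaptured bin, chr10:102241115-102246487, reached by 6 pairs. The OTX2 window at chr14:56810480-56810729, at the outermost start of that gene, lay in the uncaptured bin chr14:56809760-56813211, reached by 4 pairs.
OTP: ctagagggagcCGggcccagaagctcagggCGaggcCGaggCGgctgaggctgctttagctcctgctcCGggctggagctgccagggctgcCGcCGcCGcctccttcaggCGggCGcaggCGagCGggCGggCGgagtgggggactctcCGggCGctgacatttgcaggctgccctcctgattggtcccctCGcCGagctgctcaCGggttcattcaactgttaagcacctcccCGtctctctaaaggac
PITX3: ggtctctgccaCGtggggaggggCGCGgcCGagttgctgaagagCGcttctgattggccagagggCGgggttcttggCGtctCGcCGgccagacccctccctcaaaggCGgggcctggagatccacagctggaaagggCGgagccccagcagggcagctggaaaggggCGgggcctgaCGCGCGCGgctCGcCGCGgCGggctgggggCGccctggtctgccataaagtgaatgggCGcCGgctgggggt
OTX2: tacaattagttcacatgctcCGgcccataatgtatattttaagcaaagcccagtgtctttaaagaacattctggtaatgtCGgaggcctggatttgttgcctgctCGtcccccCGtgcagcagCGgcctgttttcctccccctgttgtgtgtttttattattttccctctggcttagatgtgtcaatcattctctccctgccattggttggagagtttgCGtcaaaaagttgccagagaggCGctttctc
OTP had 20 CpGs in this window, PITX3 23 and OTX2 7, against a median of 16 over 22199 promoters of 15843 protein-coding genes, with quartiles of 5 and 25. The OTX2 window was also the poorest in G and C of these 3, at 47.2%, against 68.8% for OTP, 72.0% for PITX3 and a median of 62.0% over all promoters. The windows of PITX1, OTX1 and GSC held 29, 33 and 18 CpGs. A further OTX2 start inside the gene, in the bin chr14:56804645-56809759 that 4 pairs reached, held 4 CpGs. Neither TAATCC nor TAATTA occurred on either strand in any window of the 6 genes. These letters stood in 4.87% and 3.15% of all promoters, so most promoters lack them too.

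The number of captured fragments with a listed cis pair at a gene's ends differed among the members, and with it what could be seen. A captured fragment without such a pair would not be counted here. OTP had 4, of which 3 lay at its 3′ end and 1 at its 5′ end. PITX1 also had 4, with a pair of them at each end. OTX1 had 2, both at the 3′ end, GSC had 1 at the 3′ end and PITX3 had 1 at the 5′ end. OTX2 had no such fragment within 1000 bp of an end, so in all of its 17 pairs the gene was the other end of a bait elsewhere. Among 9948 protein-coding genes with any cis pair, OTP was at rank 3 by number of pairs, PITX1 at rank 348 and OTX2 at rank 682. Of the 179 member pairs 169 (94.4%) spanned at most 500 kb, against 72.8% of all cis pairs, and the median span was 252 kb against 314 kb. Both ends were captured in 42 pairs, and 40 of these were at OTP.

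Calls at the 6 genes numbered 87 in the DMSO profile, 77 in the UNC6852 profile and 96 in the UNC1999 profile of the 179 pairs. Over all cis pairs 42.4% were called in DMSO, beside 46.1% in UNC6852 and 42.3% in UNC1999. OTP set most of these counts, with 62 calls in DMSO, against 47 in UNC6852 and 66 in UNC1999. Without OTP, an alternative added after seeing the data, the other 5 genes had 25, 30 and 30 calls.

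Most pairs were called in 1 profile alone. This held for 124 of the 179 member pairs, and 77.5% of all cis pairs were called in 1 profile alone. A further 29 member pairs were called in exactly 2 profiles and 26 in all 3, where 8.33% of all cis pairs were called in all 3. The pairs called in all 3 were 19 at OTP, 3 at PITX3, 2 at OTX1, 2 at OTX2 and none at PITX1 or GSC. Of the 25 PITX1 pairs, 24 were called in 1 profile alone.

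**Figure D1:**
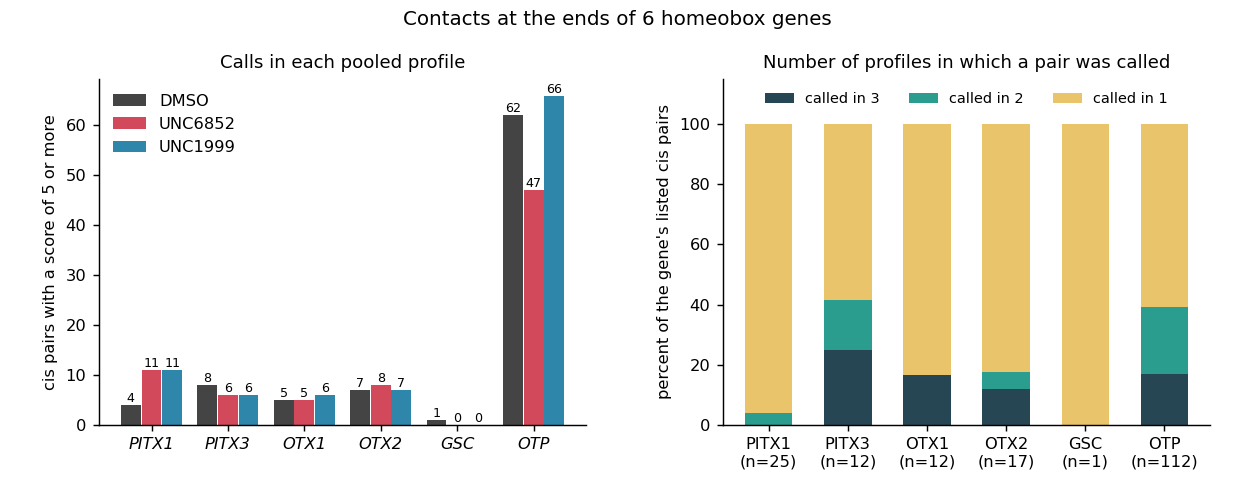
Left, number of cis pairs with a CHiCAGO score of 5 or more at each gene in the pooled DMSO, UNC6852 and UNC1999 profiles. Right, percent of each gene's listed pairs called in 1, 2 or 3 profiles, with the number of listed pairs (n) under each bar. OTP held 62, 47 and 66 calls and PITX1 4, 11 and 11, while 24 of 25 PITX1 pairs were called in 1 profile alone.

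Of the 87 calls in DMSO, 34 were also calls in UNC6852, a share of 39.1% with an exact (Clopper-Pearson) 95% interval of 28.8% to 50.1%, beside 31.4% of all DMSO calls. UNC1999 kept 39 of the 87, or 44.8% (34.1% to 55.9%), beside 29.3% over all cis pairs. The former interval includes its background and the latter lies above it. That background was not matched for distance or capture. Of the member pairs 94.4% spanned at most 500 kb and 23.5% had both ends captured, against 72.8% and 2.84% of all cis pairs. These intervals cover counting error only and treat pairs as independent, which pairs sharing a fragment are not. In the other direction, 34 of the 77 UNC6852 calls (44.2%) were calls in DMSO, beside 28.8%, and 39 of the 96 UNC1999 calls (40.6%) were, beside 29.3%. Between the treated profiles, 34 of 77 UNC6852 calls were called in UNC1999 (44.2%, against 29.1% over all cis pairs) and 34 of 96 UNC1999 calls in UNC6852 (35.4%, against 31.7%). The treated profiles thus shared calls at the members at about the rates at which either shared them with DMSO. Without OTP the shares of DMSO calls kept were 8 of 25 (32.0%, interval 14.95% to 53.5%) in UNC6852 and 9 of 25 (36.0%, interval 18.0% to 57.5%) in UNC1999, and both intervals include the background.

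To compare levels, scores were transformed with asinh, which behaves like a logarithm for high scores and accepts 0, and averaged over a gene's pairs. In the UNC6852 profile the mean was higher than in DMSO at PITX1 by 0.67 and at OTX2 by 0.16, and it differed by -0.081 at OTP, -0.20 at OTX1, -0.29 at PITX3 and -0.31 at the 1 pair of GSC. In the UNC1999 profile it was higher at PITX1 by 0.86, at OTX2 by 0.12 and at OTP by 0.097, and it differed by -0.12 at PITX3, -0.19 at OTX1 and -1.15 at GSC. Over 4979 protein-coding genes with at least 3 pairs the median difference was 0.069 for UNC6852, with 56.4% of genes above DMSO, and -0.0076 for UNC1999, with 49.1% above. Over the 5 members with that many pairs the medians were -0.081, with 2 above DMSO, and 0.097, with 3 above. The scale of the profiles matters here: with quantile-normalized scores the medians over all genes moved to -0.14 and -0.23. On that scale OTX2 stood at -0.038 and -0.075 and OTP at -0.29 and -0.083, so the positive signs at OTX2 and of UNC1999 at OTP turned, although those 3 values still lay above the median of all genes. PITX1 kept its sign, at 0.41 and 0.59. The UNC1999 differences of PITX3 and OTX1 also turned, to 0.11 and 0.0092, when their pairs over 2 Mb were left out.

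Only PITX1 of the 5 lay far from the middle of all genes. Of 1565 genes with at least 10 pairs, 51 had a larger positive difference than PITX1 in UNC6852 and 7 in UNC1999. The other 4 lay among the bulk of genes: at least 191 genes were below and at least 538 above each of them in both contrasts. Since the pairs were listed for reaching 5 in some profile, a gene with few DMSO calls could hardly show anything but higher treated scores.

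**Figure D2:**
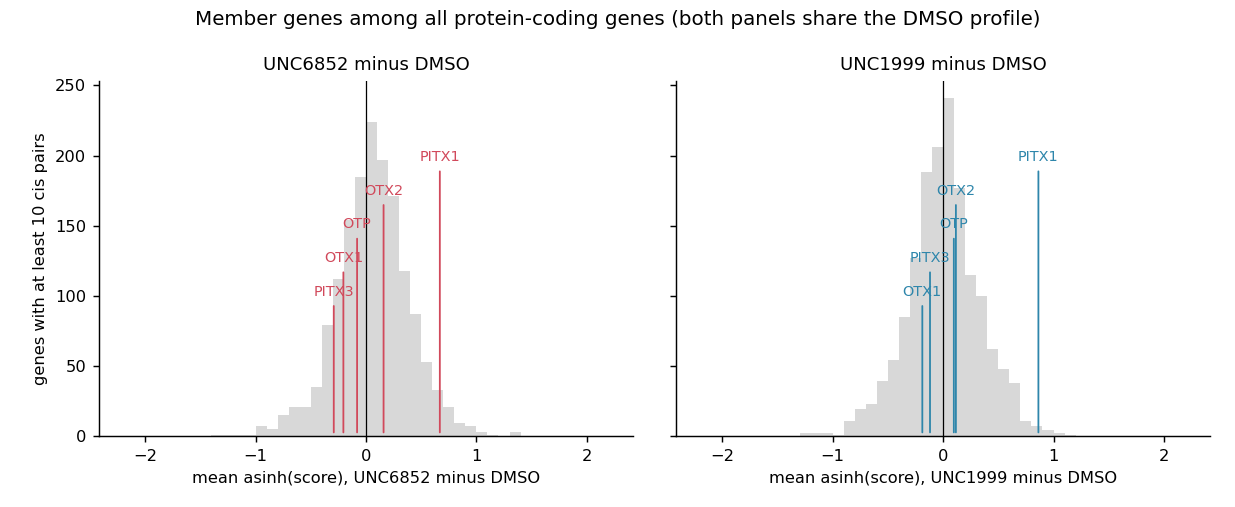
Histograms of the mean asinh(score) of a gene's cis pairs, treated minus DMSO, over 1565 protein-coding genes with at least 10 pairs, for UNC6852 (left) and UNC1999 (right), with PITX1, PITX3, OTX1, OTX2 and OTP marked. PITX1 stands at 0.67 and 0.86, in the upper tail; the other 4 lie in the bulk, and the signs of OTX2 in both panels and of OTP in the right panel turn with quantile-normalized scores.

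OTP lies on the minus strand at chr5:77628712-77638713, and 107 of its 112 pairs reached a single stretch upstream of it, chr5:77825199-78034307, 189 to 404 kb from the captured fragment. The stretch is 209 kb long, starts in intergenic DNA, holds the non-coding gene LOC101929154 and ends inside AP3B1, which encodes the beta subunit of the AP-3 adaptor complex. It took 59 calls in DMSO, beside 45 in UNC6852 and 65 in UNC1999, and all 19 OTP pairs called in every profile. The listed pairs were bunched in 2 bands. Between 200 and 250 kb upstream of the OTP 5′ end lay 50 pairs, 12 of them called in all 3 profiles, and between 300 and 350 kb lay 31, with 7 called in all 3. The 13 pairs between these bands and the 9 pairs between 350 and 400 kb held none called in all 3. Both ends were captured in 26 of the 50 pairs, 9 of the 31 and none of the 13. The number of pairs in a band therefore cannot be told apart from where fragments were captured.

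The fragment chr5:77852134-77857431 stood out in each profile, as it was listed from all 4 OTP fragments and called in all 3 profiles from each of them. From the promoter fragment, 216 kb away, it scored 20.2 in DMSO, against 17.5 in UNC6852 and 10.4 in UNC1999. From the 3 fragments at the 3′ end, the scores were 9.86, 14.6 and 14.8 (226 kb), 8.51, 14.8 and 11.9 (225 kb), and 9.83, 7.59 and 14.6 (227 kb), in the same order of profiles. The promoter fragment alone would make this contact lowest in UNC1999, whereas UNC1999 scored above DMSO from each fragment at the other end of the gene. The mean difference over the 4 was 0.13 with an SD of 0.39 for UNC6852 and 0.12 with an SD of 0.52 for UNC1999, smaller than the spread between neighbouring fragments.

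The second band was led by chr5:77961062-77966928 and its neighbour chr5:77966929-77971806. The former scored 14.6, 17.7 and 5.67 in DMSO, UNC6852 and UNC1999 from the promoter fragment, 325 kb away. From a 3′ fragment 336 kb away it scored 7.48, 11.95 and 18.5, and from another, 334 kb away, 5.31, 10.6 and 6.30. The remaining 3′ fragment, 335 kb away, gave 4.68, 4.35 and 5.96. UNC6852 was thus above DMSO from 3 of the 4 fragments, and UNC1999 was the lowest profile from the promoter but above DMSO from all 3 fragments at the 3′ end. The neighbour was called in all 3 profiles from 3 of the OTP fragments. It scored 8.42, 10.7 and 14.5 from the promoter and 12.05, 5.01 and 8.54 from the 3′ fragment 342 kb away, where DMSO was highest. The remaining contact among the 5 strongest called everywhere was chr5:77839427-77843286, 202 kb from the promoter fragment, with 11.5, 15.8 and 10.5.

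**Figure D3:**
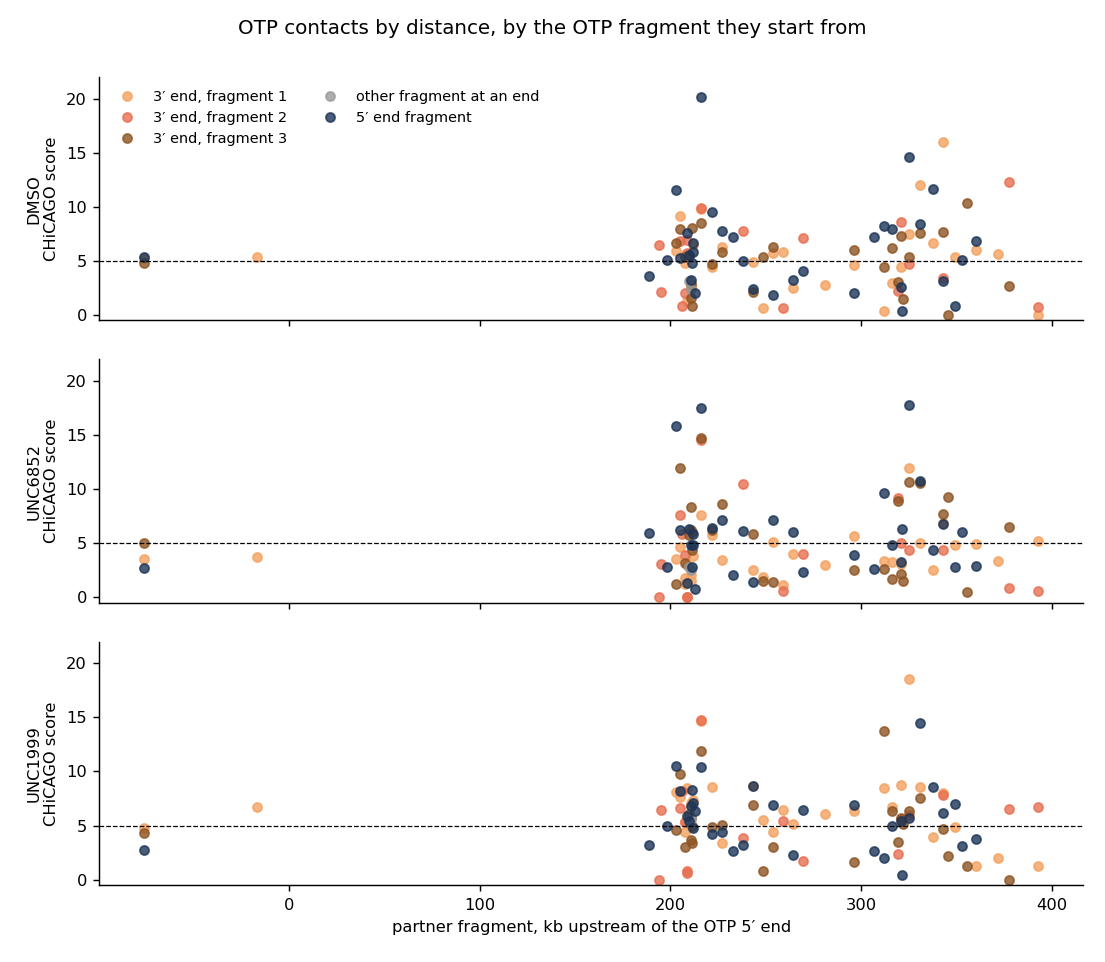
CHiCAGO scores of 111 of the 112 OTP pairs against the distance of the partner upstream of the OTP 5′ end (kb), 1 panel per pooled profile, coloured by the OTP fragment that holds the contact; the dashed line is the call score of 5 and 1 pair spanning 59.67 Mb is left out. In every panel the listed pairs crowd at 200 to 250 kb and 300 to 350 kb, where most pairs with both ends captured also lie. The fragment with the highest score in a band is not the same in each profile.

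At the far side of the stretch, near and inside AP3B1, scores differed in both directions. The 9 pairs at 350 to 400 kb had 6 calls in DMSO, beside 3 in UNC6852 and 2 in UNC1999, with mean differences of -0.36 and -0.54. Among them, chr5:77993385-77995597 scored 10.3 in DMSO, against 0.445 in UNC6852 and 1.23 in UNC1999 from a 3′ fragment 365 kb away, the largest drop at OTP on the asinh scale from a DMSO score of at least 10 for either compound. The adjoining bin at the end of AP3B1 scored 6.81, 2.90 and 3.79 over 360 kb and 5.96, 4.92 and 1.23 over 371 kb. The captured fragment chr5:78016043-78016445 inside AP3B1 scored 12.3, 0.892 and 6.56 with 1 of the 3′ fragments and 2.64, 6.49 and 0 with another, so UNC1999 was below DMSO from both and UNC6852 from 1. The bin chr5:78028914-78034307, also inside AP3B1, went the other way for UNC1999: it scored 0, 5.17 and 1.27 from 1 of the 3′ fragments and 0.713, 0.609 and 6.69 from another. In the 200 to 250 kb band the calls were 29, 23 and 33 and in the 300 to 350 kb band 17, 14 and 21, so in neither band did both compounds have fewer calls than DMSO. The largest increase on the asinh scale to a score of at least 10 was at chr5:77961062 for UNC6852, from 5.31 to 10.6, and at chr5:77947948 inside LOC101929154 for UNC1999, from 4.43 to 13.7, where UNC6852 had 2.60.

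Several OTP fragments often see the same partner, which gives a measure of how far a difference repeats within the gene. A set of 19 partner fragments was listed from at least 3 OTP fragments. None of the 19 had every UNC6852 score on the same side of DMSO, and 4 had every UNC1999 score there, 2 above and 2 below. For 1175 such combinations at 499 protein-coding genes, 27.7% had every UNC6852 score and 24.2% every UNC1999 score on 1 side of DMSO. Ties with DMSO were counted in these shares. Singled out after its values were seen, the captured fragment chr5:77848890-77849671 scored 1.59 to 3.24 in DMSO and 3.68 to 7.08 in UNC1999 over 6 listings from 3 captured and 1 uncaptured OTP fragments, with no overlap, while UNC6852 ranged from 1.51 to 8.33. Likewise chr5:77879217-77884409 scored 2.10 to 4.93 in DMSO and 6.89 to 8.62 in UNC1999 from 3 OTP fragments, with UNC6852 at 1.46 to 5.88. At both, the UNC1999 scores lay above all DMSO scores and those of UNC6852 overlapped DMSO. No DMSO score at either reached 5, so every listing rested on a treated call, mostly of UNC1999, which favours this order. The 6 listings also include contacts listed from both sides. The 2 partner fragments with every UNC1999 score below DMSO showed a gap the other way. The bin chr5:77863131-77868858 scored 5.82 to 7.80 in DMSO and 3.43 to 5.01 in UNC1999. For chr5:77559865-77565389 the ranges were 4.83 to 5.35 and 2.76 to 4.77. At the former all 3 listings were called in DMSO, which favours that order. How often such gaps occur elsewhere was not counted.

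Where both fragments of an OTP pair were captured, the contact could be listed once from either side, and 5 contacts were. Their 2 scores in a profile differed by up to 2.32, with a median difference of 0.777. One of them, 219 kb long, scored 6.90 in DMSO, beside 0 in UNC6852 and 0.810 in UNC1999 from OTP and 5.71, 0 and 0.641 from the other side. Both listings describe the same contact, so they are not independent readings, and both were listed through DMSO alone. Another, also 219 kb long, had UNC1999 below DMSO from OTP, at 4.44 against 5.51, and above it from the other side, at 5.32 against 4.85. Taken by capture, the 40 pairs with both ends captured had 20, 14 and 26 calls and the 72 others 42, 33 and 40, so UNC6852 had fewer calls than DMSO in both sets.

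The remaining OTP pairs reached WDR41, a neighbour on the other side whose product forms a complex with C9orf72, and the distant SPOCK1. The bin at chr5:77619261, which holds an end of WDR41 5.86 kb away, scored 5.36, 3.77 and 6.75. Another bin in WDR41, chr5:77559865-77565389, scored 5.29, 3.50 and 4.77 from 1 of the 3′ fragments, 4.83, 5.02 and 4.29 from another and 5.35, 2.75 and 2.76 from the promoter fragment, with UNC1999 below DMSO in each. The pair to SPOCK1 spanned 59.67 Mb and scored 0 in DMSO, against 9.22 in UNC6852 and 0 in UNC1999.

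PITX1, at chr5:135027734-135034789 on the minus strand, had 4 calls in DMSO and 11 in each treated profile. A score of 0 was found at 8 of its 25 pairs in DMSO, at 4 in UNC6852 and at 2 in UNC1999. UNC6852 scored above DMSO at 17 pairs and below at 6, and UNC1999 above at 20 and below at 4. None of the 11 UNC6852 calls was a call in UNC1999 (exact 95% interval up to 28.5%, 29.1% of all cis pairs). That interval treats pairs as independent, which pairs sharing a fragment are not, so it does not set PITX1 apart. None of the 4 DMSO calls was kept in UNC6852 (interval up to 60.2%, 31.4% of all cis pairs) and 1 was kept in UNC1999, numbers too small to set apart from the background. The median score was 0.974 in DMSO, beside 4.63 in UNC6852 and 4.77 in UNC1999, so the treated values were typically just under or just over the call score.

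All but 2 PITX1 partners lay upstream, toward PITX1-AS1, MACROH2A1 and NEUROG1. In mouse limbs this side of Pitx1 holds distant enhancers, among them Pen, which lies between Pitx1 and Neurog1. The largest group here was 7 pairs at chr5:135389807-135412653, around the end of MACROH2A1, which encodes the histone variant macroH2A1, 363 to 376 kb away, with 2, 2 and 4 calls. The strongest contact of the gene was in this group, between the bait chr5:135400809-135400959 and the bin that starts at chr5:135029519 inside PITX1, 369 kb away, with 18.7 in DMSO, against 4.01 in UNC6852 and 4.17 in UNC1999. The same bait and a bin just upstream of the gene, at chr5:135035559 and 363 kb away, scored 5.36, 3.97 and 12.7. DMSO was highest in the former contact of this bait and UNC1999 in the latter. The neighbouring bait chr5:135399732-135400808 scored 1.71, 4.67 and 5.96 with the former bin and 2.89, 4.63 and 6.01 with the latter, and at both its scores were lowest in DMSO.

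Another group of 5 pairs reached chr5:135534088-135545303, 497 to 513 kb away, a stretch that starts at NEUROG1, which encodes a proneural basic helix-loop-helix factor. This group had no call in DMSO, but 3 in UNC6852 and 2 in UNC1999. Only the baits named next lay within 1000 bp of an end of NEUROG1, and the others held some of these calls. The bait chr5:135536521-135536726 scored 0, 10.3 and 4.77, and the bait chr5:135534088-135534493 inside NEUROG1 2.78, 3.84 and 6.41. From the captured fragment at the 3′ end of PITX1, chr5:135025334-135027232, a contact of 366 kb with MACROH2A1 scored 1.46 in DMSO, beside 11.8 in UNC6852 and 3.15 in UNC1999. In each of these 3 contacts only 1 treated profile passed the call score. PITX1 had 4 partner fragments listed from a pair of its fragments each. At all 4, UNC6852 stood on the same side of DMSO from both, 3 above and 1 below. UNC1999 did so at chr5:135399732-135400808. At chr5:135485117-135487589 UNC1999 was above DMSO from 1 fragment and tied with it at 0 from the other. DMSO was 0 from both fragments there, so no treated score could fall below it. How often this occurs at other genes was not counted.

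PITX3, at chr10:102230189-102241512 on the minus strand, had its steadiest contacts with 3 baits inside GBF1, a gene whose RefSeq span overlaps PITX3 and extends upstream of it and which encodes a Golgi guanine-nucleotide exchange factor. These baits, within chr10:102342725-102347768, met the bins at both ends of PITX3 in 6 pairs, with 4 calls in DMSO, against 5 in UNC6852 and 5 in UNC1999, and 3 pairs were called in all profiles. The bait chr10:102346611-102347273 scored 7.28, 10.5 and 5.34 with the bin that holds the promoter shown above, 103 kb away. It scored 7.13, 7.51 and 9.96 with the bin at the 3′ end, 119 kb away. The adjoining bait chr10:102347274-102347768 scored 5.88, 9.63 and 2.61 with the promoter bin and 6.81, 8.59 and 9.09 with the 3′ bin. For both baits UNC6852 was highest at the promoter bin, and UNC1999 was lowest at the promoter bin and highest at the 3′ bin. The third bait scored 4.67, 7.82 and 5.01 with the promoter bin and 4.59, 4.71 and 5.44 with the 3′ bin.

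Other PITX3 contacts appeared in 1 profile each. In the stretch over NFKB2, which encodes the p100 precursor of an NF-kappaB subunit, and PSD, 4 pairs had 3 calls in DMSO, beside 1 in UNC6852 and none in UNC1999. A bait in NFKB2, 151 kb from PITX3, scored 7.16 in DMSO, against 0 in UNC6852 and 2.30 in UNC1999, and a bait just outside that gene, 164 kb away, scored 0.374, 6.43 and 1.78. A bait in PSD scored 7.53, 3.85 and 3.97, and another there scored 5.04, 1.01 and 3.86. The captured fragment at the PITX3 5′ end itself had a single cis pair, with SUFU, a negative regulator of Hedgehog signalling, at 0, 0 and 5.64. A pair of 4.59 Mb scored 6.74 in DMSO and 0 in both treated profiles. This pair and the calls in NFKB2 and PSD lowered the treated means of PITX3, and over the GBF1 pairs alone the mean differed by 0.28 in UNC6852 and -0.040 in UNC1999.

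OTX1, at chr2:63049735-63057831 on the plus strand, was seen from its 3′ end, and 9 of its 12 pairs reached WDPCP, a planar cell polarity and ciliogenesis gene downstream of it. From the captured fragment chr2:63058302-63061411 the bin chr2:63420299-63426116, 363 kb away, scored 11.6 in DMSO, beside 7.61 in UNC6852 and 8.82 in UNC1999, the strongest OTX1 contact in DMSO and called in every profile. The fragment next to it, chr2:63057744-63058301, scored 2.56, 8.01 and 1.41 with the same bin. The order of the profiles thus differed between adjoining fragments here too. A contact of 424 kb with chr2:63481156-63486364 was also called in all 3, at 6.33, 5.08 and 6.18. With the bin chr2:63185759-63190921 the fragments scored 6.16, 3.60 and 3.35 and 3.47, 6.70 and 3.804. On the upstream side, 1 pair of 277 kb reached EHBP1 and scored 1.23, 1.05 and 5.20. The pairs over 2 Mb were 45.97 Mb and 86.34 Mb long, and each was above 0 in 1 profile alone, at 5.20 in DMSO and at 6.56 in UNC6852.

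OTX2, at chr14:56799905-56810479 on the minus strand, had the most even scores of the members. Its lowest were 1.72 in DMSO, against 1.65 in UNC6852 and 2.69 in UNC1999, its highest 5.85, 7.67 and 7.65, and no score was 0. Calls numbered 7, 8 and 7. Of the 17 pairs, 14 came from 9 baits in a stretch of 12.9 kb, chr14:56884961-56897902, inside the antisense gene OTX2-AS1, 82 to 97 kb from the bins at the OTX2 ends, with 5, 6 and 6 calls. From this stretch the bait chr14:56894227-56894468 was called in all 3 profiles with the bin of the outer promoter, at 5.62, 5.05 and 5.37, 82.9 kb away. The bait chr14:56896367-56896787 was listed with all 3 OTX2 bins. It scored 5.83, 4.35 and 7.65 with the bin of the inner promoter, 2.67, 4.86 and 5.47 with that of the outer one and 3.14, 5.21 and 4.57 with the bin at the 3′ end, so UNC1999 was above DMSO in each and UNC6852 in 2.

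The highest UNC6852 score of OTX2, 7.67, came from the bait chr14:56895365-56895727, which scored 1.72 in DMSO and 3.54 in UNC1999. A contact of 4.52 kb within the gene, from the bait chr14:56804152-56804644 to the bin at the 3′ end, was called everywhere at 5.65, 5.58 and 6.35. The bait next to it scored 5.58, 4.03 and 4.66 over 3.65 kb. Over all pairs UNC6852 was above DMSO at 9 and below at 8, and UNC1999 above at 10 and below at 7, close to an even split.

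GSC, at chr14:94768223-94770113 on the minus strand, had 1 cis pair. The captured fragment at its 3′ end, chr14:94767152-94768099, met chr14:95426124-95431820 in SYNE3, a nuclear envelope gene, over 661 kb, with 5.39 in DMSO, beside 3.91 in UNC6852 and 1.58 in UNC1999. The DMSO score was just above the call score and both treated scores were under it, so this describes a single contact and not the gene.

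**Figure D4:**
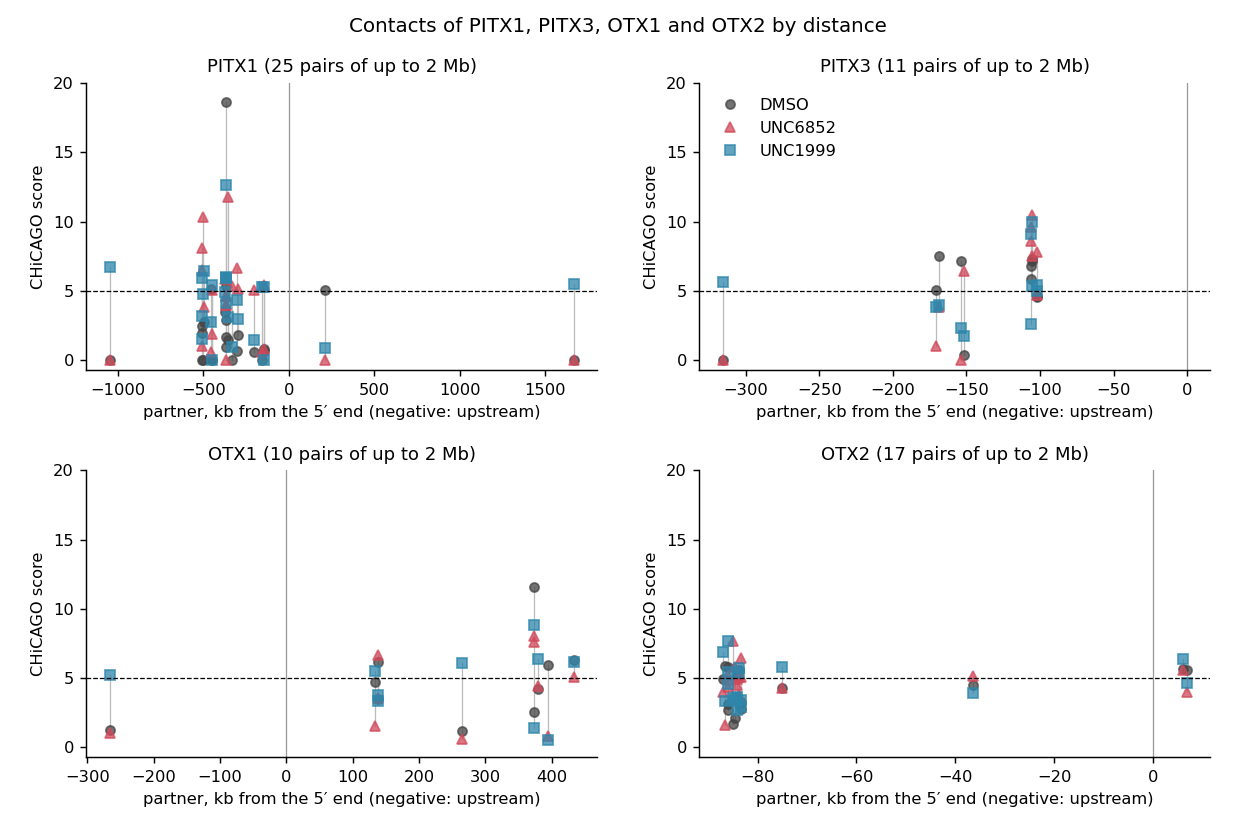
CHiCAGO scores of the pairs of up to 2 Mb at PITX1, PITX3, OTX1 and OTX2 against the distance of the partner from the 5′ end of the gene (kb, negative upstream), by pooled profile; grey lines join the 3 scores of a pair and the dashed line is the call score of 5. PITX1 partners spread mostly over the upstream side, and the PITX3 contacts with GBF1 baits reach scores of 10.5. OTX1 partners lie downstream except 1 in EHBP1, and the OTX2 scores stay between 1.65 and 7.67.

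Pairs between chromosomes were listed at these genes too, 111 in all: 46 at OTP, 33 at OTX1, 20 at PITX1, 7 at GSC, 4 at PITX3 and 1 at OTX2. Their calls numbered 22 in DMSO, beside 41 in UNC6852 and 48 in UNC1999. Of all 281836 such pairs of the series 30.0% were called in DMSO, against 34.3% in UNC6852 and 36.1% in UNC1999. None of the 111 was called in more than 1 profile, where 0.334% of all such pairs were, so no sharing is the usual state for them. The highest score was 22.7, at OTP.

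The width taken around the gene ends had a large effect on what counts as a contact of these genes. Within 5000 bp OTP had 507 pairs, OTX2 100, PITX3 81, OTX1 34, PITX1 25 and GSC 3, and where the fragment had to overlap the end itself the numbers were 52, 13, 6, 2, 5 and 0. Captured fragments with listed cis pairs thus lie mostly beside these genes' annotated ends. OTP calls at the wider setting were 262, 280 and 320, so that DMSO rather than UNC6852 then had the fewest.

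Genes that belong to the same class or act with the members were taken from 5 lists. Of 14 paired-class relatives 9 had at least 3 pairs, with a median difference of 0.15 for UNC6852 (6 above DMSO) and -0.18 for UNC1999 (3 above), beside 0.069 and -0.0076 over all genes. PRRX1, a limb mesenchyme factor, had 12 pairs and differences of 0.74 and 0.84. DMBX1, with 23 pairs and differences of 0.15 and 0.16, lay nearer to 0. Among genes of this list with few pairs, RAX had the highest UNC6852 value, 1.79 over 4 pairs, VSX1 the lowest, -1.41 over 3, and GSC2 the lowest UNC1999 value, -1.01.

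For hypothalamus and pituitary regulators, the partners of OTP, OTX2 and PITX1 in those organs, 10 of 18 genes had enough pairs, with medians of 0.27 (7 above) and 0.080 (5 above). SIM1, which acts with OTP in the same neurons, was at -0.0079 and -0.026 over 16 pairs. POU3F2 (0.41 and 0.38), SIM2 (0.34 and 0.24) and SIX3, a forebrain repressor (0.50 and 0.58 over 32 pairs), were above DMSO with both compounds, SIX6 (-0.19 and -0.32) was below with both, and FEZF1 (-0.029 and 0.19) and NKX2-1 (0.087 and -0.079) had mixed signs. LHX4 had the highest UNC1999 value of the list, 0.74 over 6 pairs.

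For the organizer and the Nodal pathway, in which GSC acts, 8 of 18 genes had enough pairs, with medians of 0.053 and 0.095 and 5 above DMSO with each compound. CHRD, which encodes the BMP antagonist chordin, was lowest with both, at -0.43 and -0.38 over 30 pairs. NOG, another BMP antagonist, was at 0.43 and 0.053 over 22 pairs, DKK1, a WNT antagonist, at 0.42 and 0.14, EOMES at 0.31 and 0.14, FOXA2 at 0.031 and 0.21, and CER1 was highest in UNC1999 at 0.49. The midbrain dopaminergic list of PITX3 and OTX2 had 8 of 12 genes with medians of 0.16 (6 above) and 0.074 (4 above). In it EN2 was at 1.37 in UNC6852, EN1 at 1.35 in UNC1999, LMX1A at 0.40 and -0.018, WNT1 lowest in UNC6852 at -0.33 and SLC6A3 lowest in UNC1999 at -0.75. The hindlimb list of PITX1 had 6 of 8 genes with medians of 0.033 (4 above) and 0.050 (5 above). There ISL1 had 76 pairs (0.056 and 0.042), HOXC10 56 (-0.15 and 0.030), HOXC11 54 (0.17 and 0.059), HOXD13 51 (0.16 and 0.097), FGF10 29 (0.011 and -0.16) and SHH 8, with the highest UNC1999 value, 0.27. None of these hindlimb genes came near the differences of PITX1.

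The genes with the most similar 3 profile means, among those with at least 10 pairs and by Euclidean distance of the mean asinh scores, were PRRX1 (0.11) and C2CD4D (0.18) for PITX1, IGFBP5 (0.050) and IGSF21 (0.057) for PITX3, and HLA-F (0.046) and SLC4A10 (0.048) for OTX1. They were DLX3 (0.042) and PCDHB1 (0.055) for OTX2, GLUL (0.018) and DLG1 (0.050) for OTP, and SPATA22 (0.30) and ADAMTS15 (0.35) for GSC. The distances were largest at GSC, whose means rest on 1 pair.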

How the data were processed

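Each condition, DMSO, UNC6852 or UNC1999, was a CHiCAGO score column that the authors deposited, pooled over 15 libraries, as the labels name it. The build, GRCh38, comes from the submitters' processing notes. Which tool versions and settings the authors used is not given in the sources used here, and the number of reads is unknown, so no depth or detection limit is given. From the values, scores were never negative and every listed pair reached 5 in at least 1 column.

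Pairs were assigned to genes through RefSeq GRCh38.p14. Captured fragments whose start fell in a promoter window began with GATC, the DpnII site, in 650 of 650 cases, a check of the build. Calls, shares with exact (Clopper-Pearson) 95% intervals and differences of mean asinh(score) were computed, without a test. The assignment of pairs to genes was checked on made-up fragments. Shifts planted in the DMSO scores come back by construction, so they do not check the differences. Calls, shares and intervals were not checked on simulated data. Partner regions joined fragments at most 20 kb apart. Named pairs were, for each gene, the strongest called in all 3 profiles, the 3 with the highest mean score, the largest asinh decrease from and increase to a score of at least 10, and partners at gene ends; others show how neighbouring fragments differ. List genes were named with at least 10 pairs or at an extreme among those with 3. Some list genes that met this rule are not reported here. Members, lists and rules were chosen with earlier results of these data known. 1 list symbol matched by an older name. Alternatives changed the call threshold, width, scaling, transform, distance and side of the gene. Python 3.11.15, pandas 2.3.3, numpy 2.4.6 and scipy 1.17.1 were used, with matplotlib 3.10.9.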

Additional observations from a re-analysis of the deposited data

How the results depend on the processing

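No paired analysis was possible because each condition was 1 pooled score column. Of 91 comparisons of a summary with an alternative, 60 moved by less than the limit set, 26 moved further and 5 turned; of 144 at single genes the numbers were 93, 36 and 15. PITX1 stayed above DMSO under every alternative run, from 0.41 to 1.32 for UNC6852 and 0.58 to 1.06 for UNC1999, and GSC stayed below, from -0.44 to -0.13 and -1.41 to -0.91. Several alternatives left the pairs of these genes unchanged and so could not move their values. The signs also follow the listing: the GSC pair was called in DMSO alone. Of the PITX1 pairs, 11 were called in UNC6852 alone and 10 in UNC1999 alone. The PITX1 sign was not the same at each captured fragment. Over the 2 pairs of chr5:135035029-135035558 the means differed by -0.0035 in UNC6852 and -0.77 in UNC1999. The other captured fragments of PITX1 were above DMSO with both compounds. Calls in DMSO, UNC6852 and UNC1999 were 35, 34 and 34 at a threshold of 7 and 10, 14 and 9 at 10, where UNC1999 kept 20% of DMSO calls. They were 40, 38 and 38 for fragments overlapping the end, 360, 388 and 445 within 5000 bp, 196, 221 and 245 over gene bodies, 23, 19 and 27 counting pairs whose other end held the gene, and 25, 30 and 30 without OTP, an alternative chosen after seeing the data. UNC6852 kept 50.8% of DMSO calls within 5000 bp and 50.5% over gene bodies. The median difference for UNC6852 was 0.068 at the overlapping end, 0.017 within 5000 bp, 0.12 over gene bodies and -0.29 with quantile-normalized scores. For UNC1999 it was 0.22 with other ends alone, -0.083 when quantile-normalized and -0.0015 without OTP. Signs turned for UNC6852 at OTX1 (0.29 overlapping, 0.019 over the body), OTP (0.088 within 5000 bp, 0.12 over the body), OTX2 (-0.038 quantile-normalized, -0.15 for mean scores of at least 5) and PITX3 (0.16 for such mean scores). For UNC1999 they turned at PITX3 (0.17 within 5000 bp, 0.068 over the body, 2.43 at the bait only, 0.11 up to 2 Mb), OTX1 (0.0092 up to 2 Mb, 0.035 for mean scores of at least 5), OTX2 (-0.075 quantile-normalized) and OTP (-0.083 quantile-normalized). The PITX3 value at the bait only rests on 1 pair, called in UNC1999 alone, so its sign followed from the listing. The alternatives with other widths, ends or distances hold other pairs by construction; for the others the cause was not tested.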
